A study of Mus musculus with 73 samples.

Results

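The epithelium of the proximal jejunum was profiled 48 h after mice received diphtheria toxin (DT) or saline, and every gene above a minimum level was compared between the groups. The samples were chosen by their titles: 4 from DT-injected mice and 4 from mock-injected mice (called control), 8 of the 73 samples of the series. Both groups were male Lgr5(GFP-ires-DTR/+) mice, labelled as 4 months old, so the controls carried the same allele and lacked only the toxin. In these mice the DT receptor and GFP are expressed from the *Lgr5* locus, which is active in crypt base stem cells and, as the study describes, in telocytes of the villus tip stroma. The toxin therefore reaches both cell types, and changes that follow the loss of either cannot be told apart here. Epithelial cells were lifted off the jejunum with EDTA and sequenced as bulk RNA with unique molecular identifiers (UMIs), by a protocol that counts transcript 3′ ends. Numbers 1 and 2 of each group form batch a and numbers 3 and 4 form batch b.

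The jejunal epithelium renews itself from stem cells at the crypt base. Their progeny divide in the crypt and become absorptive enterocytes or goblet, enteroendocrine, Paneth and tuft cells. Paneth cells stay at the crypt base, while most of the others move up the villus and are shed at its tip. Paneth cells sit beside the stem cells and secrete antimicrobial peptides, chiefly alpha-defensins, while tuft cells are rare chemosensory cells that respond to luminal parasites. Enterocytes near the villus tip express genes that break down extracellular purines, and the study asked whether such tip genes depend on the tip telocytes.

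Between 748458 and 4210158 UMIs were counted per sample, with 11789 to 14001 genes detected. The epithelial markers *Epcam*, *Cdh1*, *Krt8*, *Krt18*, *Krt19*, *Vil1*, *Cdh17*, *Fabp1* and *Alpi* were detected in each sample and summed to 13210 to 18640 CPM (UMI counts per library size, scaled by TMM) in control and 17940 to 28210 in DT. *Fabp1* held more UMIs than any other of these (252364 over all samples, against 33587 for *Epcam*). The median log2 fold change of the 9 markers, DT over control, was -0.01, with 5 below 0. Markers of fibroblasts, endothelial cells and myeloid cells were low, while those of red blood cells and lymphocytes reached higher levels. Summed levels in control and DT were 23.0 to 51.6 and 16.1 to 44.2 CPM for 20 fibroblast and telocyte genes, 84 to 120 and 87.6 to 143 for 14 endothelial genes, and 68.9 to 181 and 51.6 to 96.3 for 27 myeloid genes, with *Cdh5* and *Kdr* at 0 UMIs throughout. Smooth muscle genes (10) summed to 82.4 to 442 and 61 to 254, and red blood cell genes (6) to 329 to 1425 and 288 to 1159. Of 16 B and plasma cell genes, the 11 with counts summed to 149 to 324 and 223 to 303, without the immunoglobulin constant genes. Single genes carried much of some sums, which therefore do not measure the content of those cells. Over all samples *Mylk* held 2371 UMIs of the smooth muscle list, against 30 for *Acta2*. *Ramp2* held 2067 of the endothelial list and *Xbp1* 3489 of the B and plasma cell list. Of 30 T cell and intraepithelial lymphocyte genes, the 25 with counts summed to 416 to 2526 CPM in control and 228 to 1508 in DT. *Gzma* led them with 9699 UMIs over all samples. The T cell receptor constant genes of the list had no counts available, so this sum leaves them out. Some libraries were closer to a library of the other group in their batch than to their own group. Across genes, the log2 CPM of DT 1 correlated at 0.957 with control 1 and at 0.931 with DT 2, control 1 at 0.914 with control 2, and DT 4 at 0.95 with control 4 and at 0.945 with DT 3.

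*Lgr5*, whose locus drives the toxin receptor, was low in both groups. It measured 44.5, 76.4, 10.6 and 24.2 CPM in control and 46.7, 32.6, 6.23 and 12.5 CPM in DT, resting on 47 to 90 and 24 to 67 UMIs. The ranges overlapped, and the log2 fold change of -0.75 (95% interval -1.44 to -0.06) did not pass the test across genes (edgeR quasi-likelihood test, Benjamini-Hochberg adjusted p = 0.258).

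Of 17399 genes in the table, 8986 were above 1e-05 of a sample's UMIs in at least 2 samples and were tested with batch as a term. At an adjusted p below 0.05, 2 genes rose (0.0223% of those tested) and 30 fell (0.334%). At the looser threshold of 0.2, which the study used, 65 rose (0.723%) and 149 fell (1.66%), and "rose" and "fell" refer to this threshold from here on. Each of these 214 genes had the same direction in both batches. Their sizes differed: the risen genes had a median log2 fold change of 0.93 and 35.4% of them changed more than 2-fold, while the fallen genes had a median of -1.05 and 55.7% changed more than 2-fold. The volcano plot of all genes shows the steep fallen arm, which holds *Ada* and *Mptx2*, and a shorter risen arm in which *Acot1* lies far to the right. Of the risen genes, 17 had all DT samples above all control samples, against 109 (1.21%) of all genes tested, and of the fallen genes 68 had all DT samples below, against 168 (1.87%). With the replicate number as a block in place of batch, 0 rose and 3 fell at 0.05, and 10 rose and 60 fell at 0.2. Without DT 1 the looser counts were 465 risen and 375 fallen, and without control 3 they were 3 and 38.

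**Figure D1:**
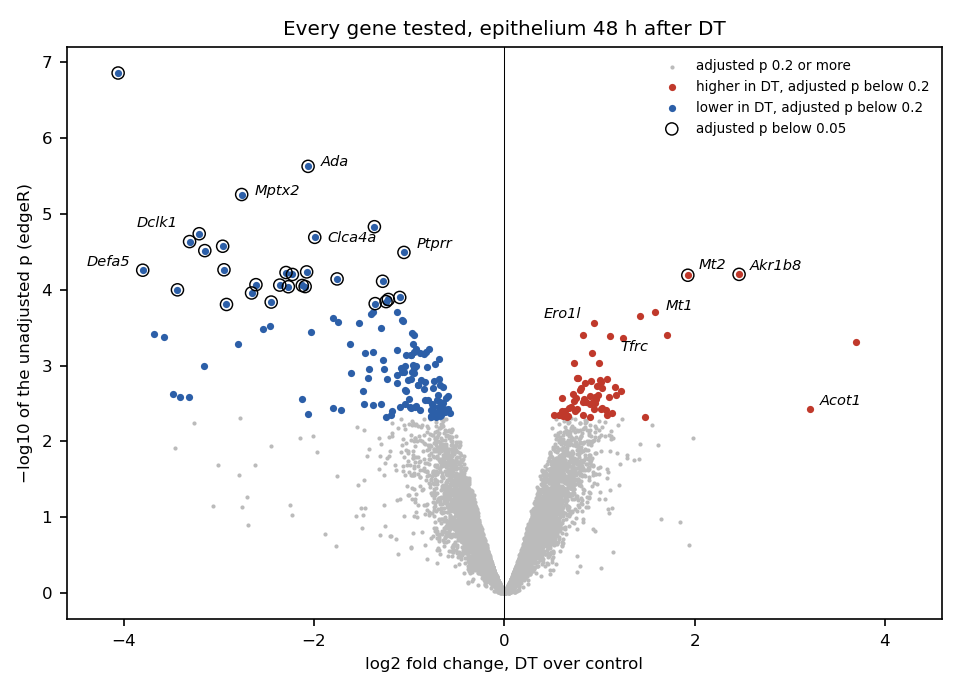
Each point is 1 of the 8986 genes tested, with the log2 fold change of DT over control on the x axis and −log10 of the unadjusted edgeR p on the y axis. Red (65 genes) and blue (149 genes) mark adjusted p below 0.2, and rings mark the 32 genes below 0.05, of which 30 lie on the fallen side.

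A property of the libraries moved with the groups and bears on the risen side. Genes with short transcripts tended to be higher in DT: in the shortest of 10 equal groups by length (median 757 nucleotides) 80.4% of genes were above 0, with a median log2 fold change of 0.37, and in the longest (median 7175 nucleotides) 23.5% were above 0, with a median of -0.24. Over all genes tested, 50.5% were above 0 and the median was 0.00. The gradient was present in batch a (0.54 to -0.26) and in batch b (0.26 to -0.20). The share of UMIs on transcripts under 1000 nucleotides was 21.5%, 17.9%, 25.2% and 28.2% in control 1 to 4 and 21.9%, 26.6%, 29.2% and 28.7% in DT 1 to 4. Its part in the changes was not tested. For some genes, most of them short, values are given also from a fit in which a length-dependent offset was removed from every sample. In that fit 44 of the 65 risen and 128 of the 149 fallen genes were still called at 0.2.

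**Figure D2:**
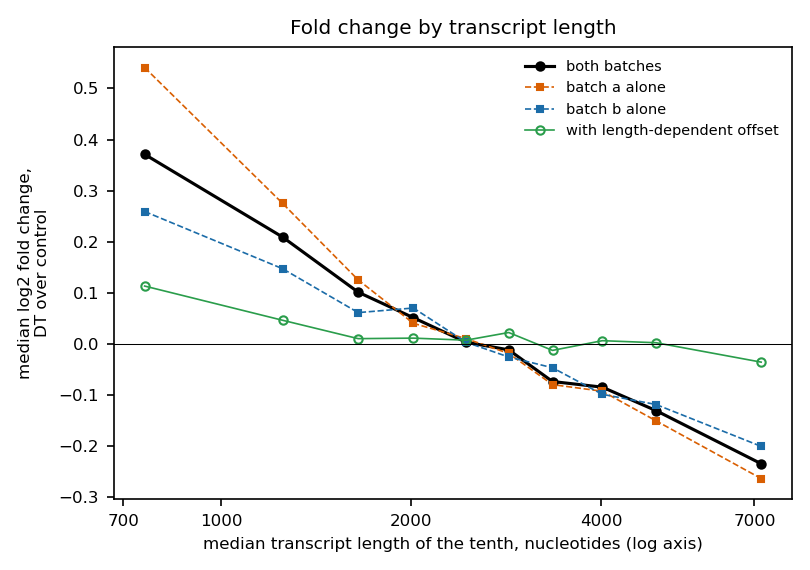
Genes were split into 10 equal groups by transcript length, and the median log2 fold change of DT over control in each (y axis) is plotted against the group's median length in nucleotides (x axis, log scale). The median falls from 0.37 in the shortest to -0.24 in the longest group, in both batches, and from 0.11 to -0.04 after the length-dependent offset.

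On the risen side the metallothioneins, small cysteine-rich proteins that bind zinc and copper and are induced by metals and stress, stood out. *Mt2* measured 30.1, 11.8, 116 and 74.3 CPM in control and 51.7, 121, 448 and 268 CPM in DT. The groups overlapped, because batch b ran higher in both, but within each batch both DT samples exceeded both controls. *Mt2* rose 3.81-fold (log2 fold change 1.93 ± 0.32 SE, 1.96 in batch a and 1.91 in batch b, adjusted p = 0.034 by edgeR, 0.0948 with the replicate block). *Mt1* measured 204, 88.2, 383 and 426 CPM in control and 382, 552, 1493 and 811 CPM in DT, with the same separation in batch b and in batch a. It rose 3.00-fold (log2 1.58 ± 0.30, adjusted p = 0.0506, 0.213 without control 3). With the length-dependent offset the log2 fold changes were 1.65 for *Mt2* and 1.29 for *Mt1*, both with an adjusted p of 0.031. None of the other 7 tested genes of the metallothionein and zinc list passed. They included the metal-sensing factor *Mtf1* at -0.53 and the zinc exporter *Slc30a1* at -0.26, and the list's median was -0.06.

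*Mt1* and *Mt2* lie next to each other on chromosome 8 (GRCm38, 94179082 to 94180327 and 94172664 to 94173568, both on the plus strand). Their RefSeq promoter windows are shown because metallothionein genes are the textbook carriers of metal response elements, with each match to TGCACNC or TGCGCNC, on either strand, in capitals. The windows run from 250 bases before to 50 bases after the RefSeq start, on build GRCm38.p6. They lie at chr8:94178839-94179138 for *Mt1* and chr8:94172368-94172667 for *Mt2*. The RefSeq starts differ from the gene starts above, which come from another annotation.
Mt1: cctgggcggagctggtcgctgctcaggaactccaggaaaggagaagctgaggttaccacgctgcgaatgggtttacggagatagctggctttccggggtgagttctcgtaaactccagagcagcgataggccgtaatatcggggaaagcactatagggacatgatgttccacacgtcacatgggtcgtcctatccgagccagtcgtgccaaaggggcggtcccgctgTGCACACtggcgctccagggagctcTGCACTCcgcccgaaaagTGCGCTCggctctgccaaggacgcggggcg
Mt2: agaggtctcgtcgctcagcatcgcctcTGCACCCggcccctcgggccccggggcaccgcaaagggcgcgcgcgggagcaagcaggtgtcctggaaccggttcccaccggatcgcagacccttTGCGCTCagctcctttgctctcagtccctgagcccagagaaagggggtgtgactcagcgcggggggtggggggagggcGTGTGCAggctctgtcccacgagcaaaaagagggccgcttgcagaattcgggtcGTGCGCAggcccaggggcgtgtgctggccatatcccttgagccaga
The *Mt1* window held 3 matches and the *Mt2* window 4, the latter with 2 on each strand. A match is common: 25.7% of 32851 promoter windows and 35.6% of the 8796 windows of tested genes held at least 1. In the zinc list 6 of the 7 genes with a window held a match, among them *Slc30a1* and *Slc30a2*, which did not pass the test.

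*Akr1b8*, an aldo-keto reductase that detoxifies reactive aldehydes and is a known target of the oxidative stress factor Nrf2, was the other gene that rose at 0.05. It gave 0, 1.47, 8.34 and 5.39 CPM in control and 7.51, 19.0, 28.8 and 33.3 CPM in DT. The 0 UMIs of control 1 allow up to 2.07 CPM before scaling, for counting error only. It rose 5.53-fold (log2 2.47 ± 0.41, adjusted p = 0.034, 0.0703 with the block), with 4.56 in batch a, where the controls held 0 and 1 UMI, and 2.15 in batch b. It was the 1 called gene among 39 tested Nrf2 and oxidative stress genes, whose median was 0.24 with 29 above 0. *Gsta1* (0.98), *Gpx1* (0.86), *Fth1* (1.10) and *Me1* (1.56) were above 0 without passing, at adjusted p of 0.26, 0.23, 0.22 and 0.22, while the glutathione synthesis gene *Gclc* was at -0.43. With the length-dependent offset 24 of 39 were above 0, with a median of 0.18.

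Some genes of fatty acid metabolism rose, although the lipid list that holds most of them had no common direction. *Cpt1a*, which imports long-chain fatty acids into mitochondria, measured 47.4, 38.2, 70.3 and 87.0 CPM in control and 92.6, 85.1, 122 and 126 CPM in DT, again separate within each batch. It rose 1.77-fold (log2 0.82 ± 0.17, adjusted p = 0.069). *Acadl*, a dehydrogenase of the same pathway, measured 268, 232, 101 and 163 CPM in control and 459, 323, 404 and 288 CPM in DT, with no overlap, and rose 2.03-fold (adjusted p = 0.14). *Acot1*, an acyl-CoA thioesterase, measured 188 CPM in DT 3 against 4.17 to 27.9 in the other DT samples and 2.15 to 11.8 in control (log2 3.21 ± 0.79, adjusted p = 0.191). Without DT 3 it was 1.6 with an adjusted p of 0.225, and of the other samples only DT 1 and DT 4 could be left out without losing the call. *Angptl4*, a lipase inhibitor also known as a fasting-induced factor, gave 11.7, 40.4, 103 and 22.5 CPM in DT against 9.69 to 14.7 in control and did not pass (adjusted p = 0.223). *Cpt1a*, *Acadl* and *Acot1* are known targets of the fatty acid sensor PPARα. With the block the adjusted p was 0.19 for *Cpt1a*, 0.259 for *Acot1* and 0.341 for *Acadl*, and without control 3 that of *Cpt1a* was 0.289.

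Of the lipid list's 35 tested genes 3 rose, among them *Cpt1a* and *Acadl*, and 3 fell, and the median was -0.05. Those that fell were *Acot12*, an acetyl-CoA thioesterase, with 110, 115, 61.3 and 50.1 CPM in control and 41.7, 32.1, 37.1 and 21.6 CPM in DT (log2 -1.24 ± 0.23, adjusted p = 0.0434), the fatty acid transporter *Slc27a4* (-1.01, adjusted p = 0.137) and *Soat2*, which esterifies cholesterol in enterocytes (-0.65, adjusted p = 0.152), the last pair not with the block (0.36 and 0.301). *Fabp1*, the abundant fatty acid binding protein of enterocytes, was between 11180 and 21050 CPM in DT and between 6873 and 11110 in control, without overlap, and had a log2 fold change of 0.91 that did not pass (adjusted p = 0.223). No gene of the 27 tested in cholesterol synthesis passed in edgeR or DESeq2 or had an unadjusted p below 0.05 (0 each), with a median of 0.00.

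Several other risen genes handle iron, oxygen and amino acids, although genes of such roles also fell. Chosen after their values were seen, the mitochondrial iron importer *Slc25a37* (-0.79) and the amino acid transporters *Slc7a15* (-0.82) and *Slc16a10* (-0.61) fell. Of these, *Slc25a37* and *Slc16a10* did not pass with the block (adjusted p of 0.252 and 0.31). *Tfrc*, the transferrin receptor that imports iron, measured 100, 83.8, 156 and 135 CPM in control and 182, 235, 407 and 200 CPM in DT, all DT samples above all controls. It rose 2.16-fold (log2 1.11 ± 0.23, adjusted p = 0.0695), but the adjusted p was 0.22 without control 3 and 0.21 without DT 3. *Ero1l*, the oxidase that drives disulphide formation in the endoplasmic reticulum and responds to low oxygen, measured 35.2, 33.8, 37.0 and 27.2 CPM in control and 65.9, 69.5, 70.6 and 50.3 CPM in DT. It rose 1.92-fold (log2 0.94 ± 0.18, adjusted p = 0.058), with 0.97 in batch a and 0.91 in batch b, and was 1.06 with the length-dependent offset. It was the 1 call among 23 tested glycolysis and hypoxia genes, of which 15 were above 0 (median 0.28, *Pfkl* 0.72, *Aldoa* 0.74, *Car9* 0.90). *Slc38a1*, a glutamine transporter, measured 25.5 to 30.7 CPM in control and 42.0 to 50.6 CPM in DT and rose 1.66-fold (adjusted p = 0.109). *Asns* and *Psat1*, which make asparagine and serine, rose 2.03-fold and 2.25-fold (adjusted p of 0.19 and 0.152, and 0.345 and 0.277 with the block). *Asns* was the 1 call of 28 tested genes of the unfolded protein response and chaperone list, whose median was 0.05. *Mif*, a cytokine with a short transcript, rose 2.37-fold (log2 1.24, 0.90 with the length-dependent offset, adjusted p of 0.0698 and 0.0881).

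The rest of the leading risen genes had no common role. *Acta1*, skeletal muscle actin, was low but separate, with 10.8, 13.2, 6.31 and 6.73 CPM in control and 30.0, 16.5, 23.9 and 20 CPM in DT (log2 1.43 ± 0.27, adjusted p = 0.0541). *Mylk*, the gene of the smooth muscle list above the filter, was at -0.71 (adjusted p = 0.223). *Mgat4c*, a glycosyltransferase, rose mostly in batch a, with 34.2 and 38.9 CPM in DT against 7.90 and 7.35 in control, and 3.90 and 8.74 against 2.03 and 3.50 in batch b (log2 1.71 ± 0.35, adjusted p = 0.069). *Ccl9*, a chemokine counted here among the goblet cell genes, rose 1.90-fold (adjusted p = 0.0907). *Sprr2a1*, a small proline-rich protein of stressed epithelium, measured 264 to 426 CPM in control and 533 to 714 in DT 2 to 4, with 2428 in DT 1 (log2 1.47 ± 0.42, adjusted p = 0.199). It was the 1 call among 8 tested genes of the regeneration and fetal-type list (median 0.04). *Erh* (1.00), *Hddc2* (0.77) and *Gtf2h5* (0.77), the last a subunit of the transcription and repair factor TFIIH, were also among the 15 risen genes with the smallest p. With the block, *Ccl9*, *Slc38a1*, *Erh*, *Hddc2*, *Gtf2h5* and *Sprr2a1* did not pass (adjusted p of 0.228, 0.267, 0.283, 0.291, 0.328 and 0.379). With the length-dependent offset *Erh* was at 0.79 (adjusted p = 0.117) and *Hddc2* at 0.55, which did not pass (0.238). *Sprr2a1* lost its call in that fit too.

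**Figure D3:**
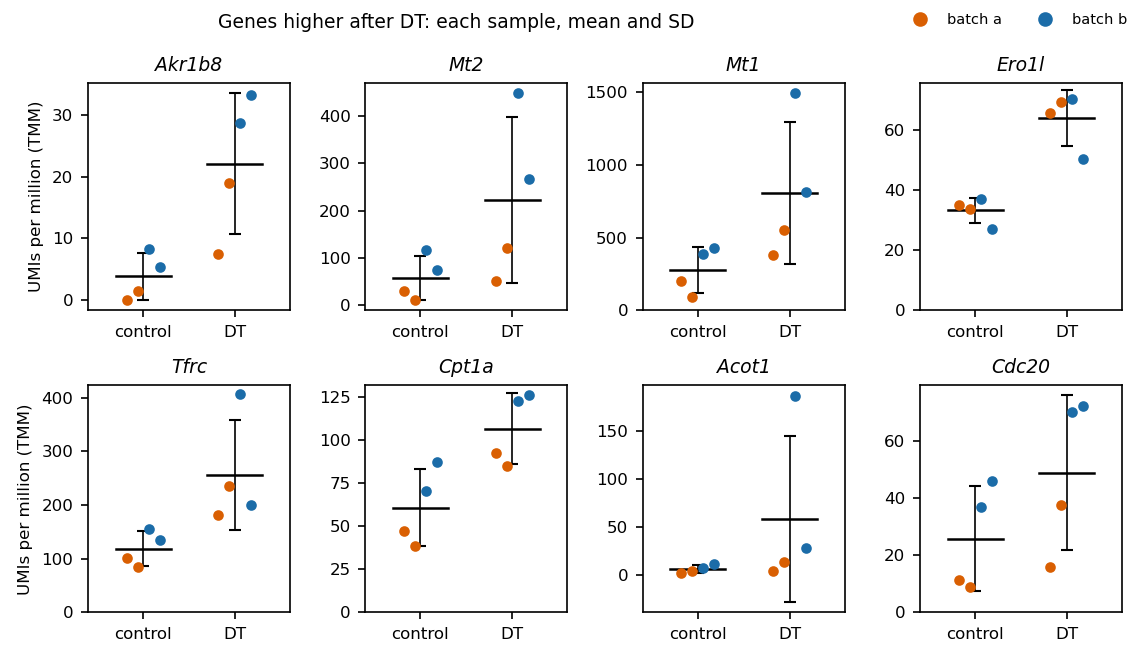
Each panel shows 1 gene, with TMM-scaled CPM on the y axis and the 4 control and 4 DT samples on the x axis, coloured by batch. Horizontal lines are means and error bars are SDs (n = 4). In *Ero1l* and *Tfrc* all DT samples lie above all controls, and in *Acot1* DT 3 at 188 CPM lies far above the other DT samples.

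Proliferation genes leaned upward without most of them passing. All 44 tested cell cycle and DNA replication genes had a log2 fold change above 0 (median 0.50, range 0.04 to 0.98), 44 in batch a and 41 in batch b, and 4 rose: *Cdc20*, which activates the anaphase-promoting complex, its ubiquitin-conjugating enzyme *Ube2c*, the mitotic survivin gene *Birc5*, and *Rrm2*, a ribonucleotide reductase subunit. *Cdc20* measured 11.5, 8.82, 37.0 and 45.8 CPM in control and 15.9, 37.5, 70.1 and 72.0 CPM in DT (log2 0.98 ± 0.26, adjusted p = 0.172). Batch b ran higher than batch a in both groups, and within each batch the DT samples lay above the controls. The log2 fold changes of *Ube2c*, *Birc5* and *Rrm2* were 0.95, 0.83 and 0.77. Their transcripts were not short (median length of the list 2555.5 nucleotides, against 2651 for all genes), and with the length-dependent offset the list's median was 0.54, with 43 of 44 above 0 and the same number of calls, 4. The median was larger in batch a (0.97) than in batch b (0.31), and no call was left with the block (adjusted p of 0.31 for *Cdc20*), while DESeq2 called 14. *Cks1b* and *Cks2*, which bind cyclin-dependent kinases, also rose (log2 1.23 and 1.07, *Cks2* named after its values were seen, 0.301 and 0.377 with the block). Their transcripts are short, at 807.5 and 692 nucleotides. With the length-dependent offset they were at 1.02 and 0.85 (adjusted p of 0.144 and 0.186).

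Ribosomal and respiratory chain genes were shifted in the same direction, and most of them are short. All 83 tested cytosolic ribosomal protein genes were above 0 (median 0.72, range 0.07 to 1.29), 1 of which rose (*Rps3a1*, log2 0.90, adjusted p = 0.199, but 0.375 with the block and 0.251 with the length-dependent offset), and all 76 nuclear-encoded respiratory chain genes were above 0 (median 0.43) with 0 calls at 0.2 in edgeR, 15 at an unadjusted p below 0.05 and 11 in DESeq2. *Rps3a1* has near-identical copies in the genome, so its count is uncertain. Of the 83 ribosomal genes 65 were in the shortest of the 10 length groups, as were 49 of the 74 respiratory genes with a length. The remaining 758 genes of that group had a median of 0.32 with 77.4% above 0. With the length-dependent offset the medians were 0.44 (80 of 83 above 0) and 0.21 (66 of 76). The share of UMIs on ribosomal protein genes was 2.61%, 1.73%, 5.28% and 6.6% in control 1 to 4 and 3.07%, 5.81%, 7.92% and 7.91% in DT 1 to 4. Translation and ribosome biogenesis factors (28 tested, 25 above 0, median 0.34) had 0 calls at 0.2 in edgeR, 7 at an unadjusted p below 0.05 and 4 in DESeq2, led by *Eif5a* (0.75) and *Dph6* (0.90). The 11 genes encoded by mitochondrial DNA leaned the other way, with 10 below 0 (median -0.41) and 0 calls at 0.2 in edgeR or DESeq2 or at an unadjusted p below 0.05, and control 2 had the highest mitochondrial share, 13.2% against 5.14% to 8.45% elsewhere.

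On the fallen side stood the tuft cell genes. Of 32 tuft cell genes 14 passed the filter, and 10 of them fell, 9 at 0.05, with a median log2 fold change of -2.35 (-2.0 in batch a, -2.43 in batch b, -2.32 with the length-dependent offset). The list was chosen with earlier results of these data known, so it is not independent evidence of its direction. *Dclk1*, the kinase that marks tuft cells, measured 18.7, 13.2, 15.1 and 31.2 CPM in control and 3.34, 4.38, 1.04 and 1.25 CPM in DT (log2 -3.21 ± 0.47, adjusted p = 0.0288). *Trpm5*, the cation channel of taste signalling, measured 11.5, 14.7, 6.99 and 12.7 CPM in control and 4.17, 0.973, 1.04 and 2.08 CPM in DT (log2 -2.61 ± 0.45, adjusted p = 0.0341). *Sh2d6* (-3.31), *Rgs13* (-3.15), *Bmx* (-2.96), *Alox5ap* (-2.92), *Matk* (-2.09), *Kctd12* (-1.76) and *Vav1* (-1.38) fell as well, and in each of the 10 fallen genes all DT samples lay below all controls. With the block 10 had an adjusted p below 0.2 and 1 below 0.05.

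The 4 tested tuft genes that did not pass were *Inpp5d* (-1.02), *Plcg2* (-0.32), *Fyb* (0.05) and *Ltc4s* (0.08), signalling and leukotriene genes. Leukocytes also express some genes of the list, the fallen *Vav1* and *Alox5ap* included. The summed level of all 32 tuft genes was 370 to 477 CPM in control and 230 to 277 CPM in DT. In bulk RNA, fewer cells of a type and less RNA per cell cannot be told apart. Among 21 tested T cell and intraepithelial lymphocyte genes 21 were below 0 (median -0.48), with 0 calls at 0.2 in edgeR, 4 at an unadjusted p below 0.05 and 2 in DESeq2. *Ptprc*, the common leukocyte antigen, was at -0.69 (adjusted p = 0.46) and *Lck* at -0.93 (adjusted p = 0.22). The part of leukocytes in the fall of *Vav1* and *Alox5ap* was not tested. Of the 27 myeloid genes 2 were above the filter, *Lyz2* (-1.05) and *Cx3cr1* (-0.23), and neither passed.

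Paneth cell genes fell with them. In the list kept apart from the *Defa* genes, 11 of 16 tested genes fell, 4 at 0.05, with a median of -1.89, and with the block 8 fell, 1 at 0.05. The list holds 3 defensin-like genes (*Gm15284*, *Gm14851* and *Gm7861*), all fallen, and of the remaining 13 genes 8 fell, 3 at 0.05, with a median of -1.42 (5 with the block). This list too was chosen with earlier results of these data known, and is not independent evidence. *Mptx2*, a pentraxin of Paneth cells, measured 33.7, 115, 62.0 and 47.4 CPM in control and 10.8, 8.27, 10.7 and 6.24 CPM in DT (log2 -2.76 ± 0.36, adjusted p = 0.0166, 0.0378 with the block). *Itln1*, a lectin that binds microbial sugars, measured 738, 704, 1903 and 893 CPM in control and 295, 157, 327 and 148 CPM in DT (log2 -2.12 ± 0.37, adjusted p = 0.0341). *Dnase1* fell by 2.27 on the log2 scale, the pancreatic-type lipase cofactor *Clps* by 2.03, the lipase *Pnliprp2* by 1.75, and *Nupr1* by 1.42. *Lyz1*, the Paneth cell lysozyme, measured 236, 247, 898 and 676 CPM in control and 171, 141, 356 and 130 CPM in DT, with overlap, and fell 2.26-fold (adjusted p = 0.192, 0.307 with the block). *Mmp7*, the protease that activates pro-defensins in mice, fell 2.06-fold (adjusted p = 0.157, 0.267 with the block, as for *Nupr1*). *Ang4*, a microbicidal ribonuclease, ranged from 13.2 to 172 CPM in control and 2.5 to 29.2 in DT and did not pass (adjusted p = 0.322).

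Alpha-defensin genes had the lowest median of the lists. All 11 tested were below 0 (median -3.06), and 8 fell, 3 at 0.05. Their transcripts are short (median 411 nucleotides), and with the length-dependent offset the median was -3.33 and 5 fell, 2 at 0.05, *Defa24* being at an adjusted p of 0.0663 and *Defa23* at 0.211. With the block 7 fell, 0 at 0.05. *Defa24*, among the most abundant, measured 2771, 3683, 8758 and 5393 CPM in control and 1314, 613, 1174 and 417 CPM in DT, and fell 5.46-fold (log2 -2.45 ± 0.45, adjusted p = 0.0434). *Defa26* measured 40.2, 41.2, 197 and 107 CPM in control and 14.2, 6.81, 10.4 and 3.33 CPM in DT (log2 -3.44 ± 0.54, adjusted p = 0.0361). *Defa5* measured 4.31, 4.41, 38.1 and 82.7 CPM in control and 3.34, 1.46, 3.12 and 1.66 CPM in DT, so its fall of 3.8 on the log2 scale (adjusted p = 0.034) was -0.94 in batch a, on 3 to 6 UMIs, and -4.56 in batch b. Controls of batch b held more defensin RNA than those of batch a. The summed alpha-defensin level was 6693, 7659, 20070 and 14960 CPM in control and 2905, 1196, 2209 and 655 CPM in DT, and all DT samples lay below all controls. The median log2 fold change was -1.74 in batch a and -4.56 in batch b. *Defa22*, *Defa21* and *Defa2*, the 3 that did not pass, were above 0 in batch a (0.58, 0.07 and 0.91) and below it in batch b (-5.75, -6.15 and -4.75).

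The defensins lie in a tandem cluster on chromosome 8 (GRCm38, 21025545 to 21750000). In this interval 15 annotated genes were tested, all 15 were below 0, and 9 fell, among them the defensin-related *Gm14851* (-3.15), *Gm7861* (-3.57) and *Gm15292* (-3.68). *Gm15284*, a defensin-like gene of the Paneth list that had no match in the annotation used, measured 1925, 2556, 5595 and 4305 CPM in control and 632, 306, 640 and 159 CPM in DT (log2 -2.95 ± 0.48, adjusted p = 0.034). *Defa-rs7* (-3.48) and *Defa23* (-3.41) fell at adjusted p of 0.17 and 0.176. The copies are nearly identical in sequence, so reads may have been split among them or dropped, and the separate values are uncertain and not independent of each other.

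Across all genes, the difference between the batches in the response to DT was tested directly. No gene passed an adjusted p of 0.05 in edgeR (smallest 0.738), 223 had an unadjusted p below 0.05, and DESeq2 called 9.

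Some purine genes of the villus tip fell, *Ada* and *Nt5e* at 0.05. *Ada*, the adenosine deaminase, measured 614, 634, 585 and 568 CPM in control and 148, 88.0, 196 and 151 CPM in DT. Control values had an SD of 29.2 CPM around their mean of 600, and the groups were far apart. *Ada* fell 4.18-fold (log2 -2.06 ± 0.24, adjusted p = 0.0106, 0.0625 with the block), -2.40 in batch a and -1.74 in batch b. *Nt5e*, the surface nucleotidase CD73 that makes adenosine from AMP, measured 76.8, 54.4, 98.5 and 38.0 CPM in control and 14.2, 4.86, 17.9 and 5.41 CPM in DT (log2 -2.66 ± 0.44, adjusted p = 0.0381, 0.0113 with the block). *Slc28a2*, a concentrative nucleoside transporter, measured 138, 70.5, 108 and 94.5 CPM in control and 25.0, 16.1, 70.9 and 28.7 CPM in DT, with a slight overlap through DT 3, and fell 3.05-fold (adjusted p = 0.125). Its call was lost without control 1, 2 or 3 or DT 2 (adjusted p of 0.213, 0.263, 0.273 and 0.376). *Enpp3*, an ectonucleotidase, fell 1.59-fold without overlap (adjusted p = 0.189, 0.369 with the block).

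Of the 19 tested purine and nucleoside genes 4 fell, 0 rose and 14 were below 0 (median -0.34). *Xdh* (-0.74), *Gda* (-0.60) and *Dpyd* (-0.61), which degrade purine bases or pyrimidines, did not pass, and *Hprt* (0.41) and *Slc29a1* (0.49) were above 0. Of the study's other tip genes *Klf4*, a transcription factor of differentiated epithelium, measured 238, 219, 224 and 163 CPM in control and 199, 126, 91.4 and 105 CPM in DT and fell 1.68-fold (log2 -0.75 ± 0.20, adjusted p = 0.19, 0.345 with the block). *Fos* (-0.67 ± 0.29), *Jun* (-0.54 ± 0.24), *Egfr* (-0.29 ± 0.25), *Creb3l3* (-0.26 ± 0.24) and *Cdh1* (-0.19 ± 0.20) did not pass. Neither did *Axin2* (0.28 ± 0.24), a Wnt target that the study describes as lower at the villus tip. The study held that bulk RNA could mask changes of *Cdh1*, *Klf4*, *Fos* and *Egfr* at the tip. By counting single RNA molecules in tip enterocytes it measured falls of these genes, with *Creb3l3* unchanged. Among 22 tested immediate early and Klf genes 2 fell, *Klf4* and the AP-1 gene *Fosl2* (-0.64, adjusted p = 0.333 with the block), and 17 were below 0 (median -0.29).

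**Figure D4:**
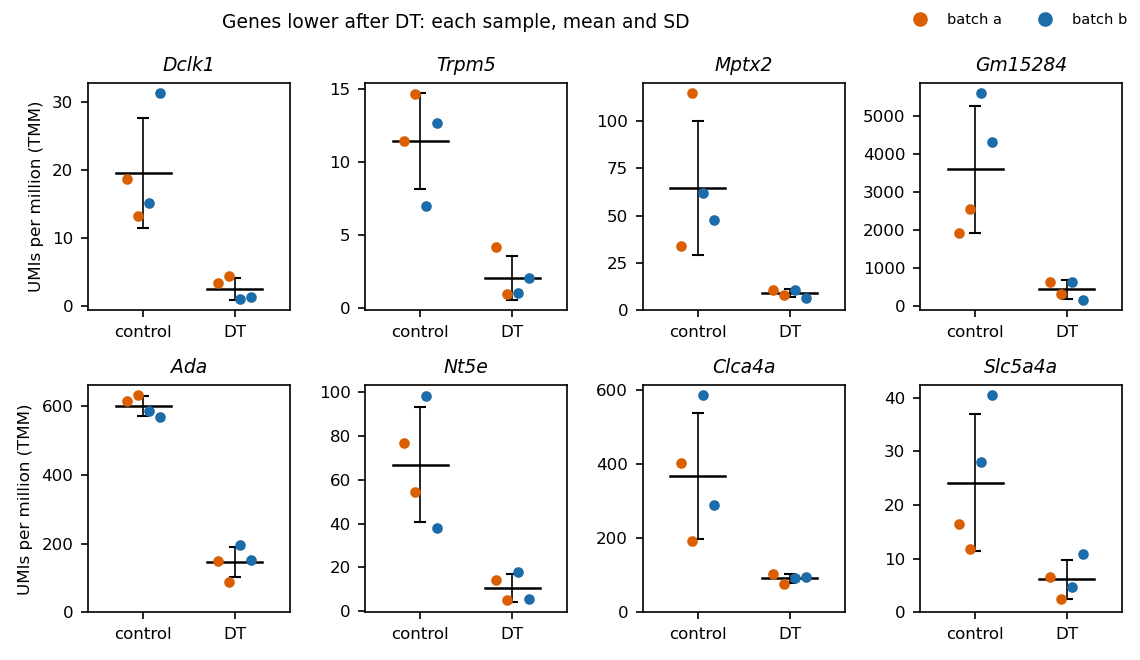
Each panel shows 1 gene, with TMM-scaled CPM on the y axis and the 4 control and 4 DT samples on the x axis, coloured by batch. Lines are means and error bars SDs (n = 4). In all 8 panels the DT samples lie below the controls, and *Ada* lies at 568 to 634 CPM in control and 88.0 to 196 in DT.

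Digestive and absorptive genes of enterocytes fell in part. Of 22 tested brush border genes 5 fell, 0 rose and 20 were below 0 (median -0.61). *Clca4a*, a surface metalloprotease-like protein of enterocytes, measured 404, 193, 588 and 290 CPM in control and 103, 75.9, 92.4 and 96.9 CPM in DT (log2 -1.99 ± 0.29, adjusted p = 0.0288). *Enpp7*, the alkaline sphingomyelinase, measured 14.4, 17.6, 19.6 and 8.89 CPM in control and 5.84, 6.32, 1.04 and 0.832 CPM in DT (log2 -2.46 ± 0.49, adjusted p = 0.0613). The neutral ceramidase *Asah2* (-0.97) and the peptidases *Mme* (-0.91) and *Enpep* (-0.84) also fell, while lactase (*Lct*, -0.73) and maltase-glucoamylase (*Mgam*, -0.64) did not pass (adjusted p of 0.22 and 0.23).

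Of 37 tested solute carriers 5 fell, 0 rose and the median was -0.28. *Slc5a4a*, of the sodium-glucose cotransporter family, measured 16.5, 11.8, 27.9 and 40.4 CPM in control and 6.68, 2.43, 4.67 and 10.8 CPM in DT (log2 -2.08 ± 0.34, adjusted p = 0.034). The vitamin C transporter *Slc23a1* fell by 1.41 on the log2 scale, the peptide transporter *Slc15a1* by 0.98, the amino acid transporter *Slc7a8* by 0.74 and the inositol transporter *Slc5a11* by 0.68, while *Slc11a2*, which imports iron, was at 0.71 (adjusted p = 0.23). With the length-dependent offset 7 brush border genes and 4 carriers fell. With the block these counts were 2 and 2, and in DESeq2 14 and 10.

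The other secretory lineages moved less. Of 12 tested enteroendocrine genes 2 fell and 11 were below 0 (median -0.60). *Gip*, the incretin hormone of K cells, measured 299, 188, 286 and 332 CPM in control and 139, 119, 146 and 101 CPM in DT (log2 -1.13 ± 0.21, adjusted p = 0.0506), and secretin (*Sct*) fell 1.97-fold (adjusted p = 0.0907), while *Cck* (-0.70), *Chga* (-0.31) and *Ghrl* (-0.32) did not pass. With the length-dependent offset *Gip* and *Sct* both had an adjusted p below 0.05 (0.0155 and 0.0183), and with the block *Sct* did not pass (0.237). Of 18 tested goblet cell genes *Fcgbp* (-0.89) and *Sytl2* (-0.93) fell and *Ccl9* rose, and the mucin *Muc2* was at -0.73 (adjusted p = 0.24). With the block *Fcgbp*, *Sytl2* and *Ccl9* did not pass (0.379, 0.36 and 0.228).

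Stem cell genes had no common direction. Of 17 tested crypt stem cell and Wnt target genes 12 were above 0 (median 0.27), 0 rose, and *Cd24a*, a surface antigen that also marks Paneth cells, fell 1.69-fold with all DT samples below all controls (adjusted p = 0.185, 0.375 with the block). *Olfm4*, a stem cell marker, measured 12.2 to 39.7 CPM in control and 21.3 to 50.6 in DT (log2 0.36, 95% interval -0.39 to 1.10), and *Ascl2*, a stem cell transcription factor, was at 1.06 (interval -0.04 to 2.15).

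**Figure D5:**
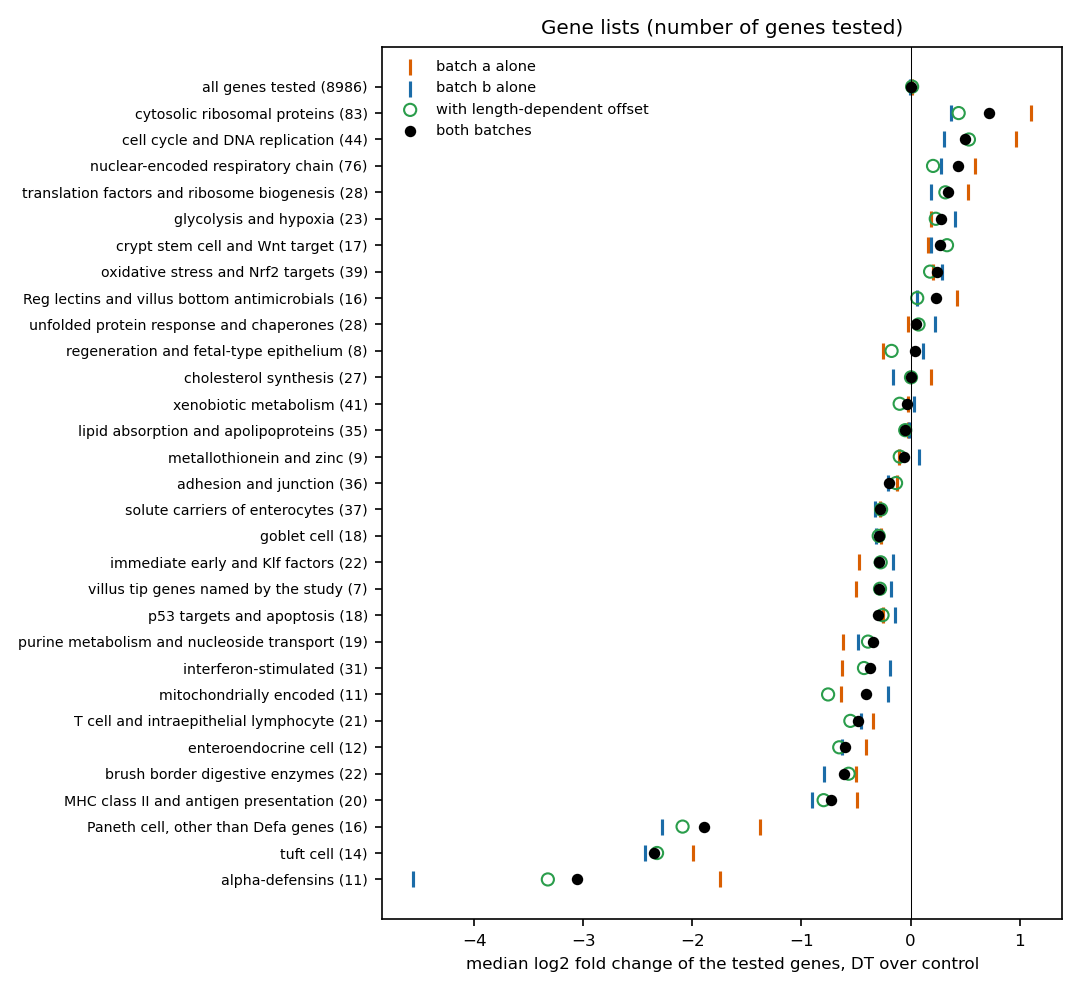
For each gene list (y axis, number of tested genes in brackets, lists with at least 7) the median log2 fold change of DT over control is on the x axis. Black dots are both batches, bars each batch alone and open circles the fit with a length-dependent offset. Alpha-defensin, tuft and Paneth lists lie between -3.06 and -1.89, and the remaining lists between -0.73 and 0.72.

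Immune recognition genes leaned downward. All 20 tested genes of the MHC class II and antigen presentation list were below 0 (median -0.73), with 0 calls at 0.2 in edgeR, 9 at an unadjusted p below 0.05 and 5 in DESeq2. *Ciita*, the master regulator of class II genes, was at -2.01 (adjusted p = 0.22), *H2-Ab1* at -1.48 and *H2-Aa* at -1.56, the last pair with all DT samples below all controls. Of 31 tested interferon-stimulated genes 27 were below 0 (median -0.37), *Gbp7* fell (-1.30, adjusted p = 0.18, 0.341 with the block), and *Ifitm3* was at 1.29 (adjusted p = 0.23). Of 36 adhesion and junction genes *Cldn2*, the cation-pore claudin of crypts, rose 1.95-fold (adjusted p = 0.177, 0.283 with the block), and 27 were below 0 (median -0.20). No gene passed in edgeR among 18 p53 and apoptosis genes (median -0.29, 2 at an unadjusted p below 0.05, 0 in DESeq2), 41 xenobiotic genes (median -0.03, 2 and 2) or 16 Reg lectin and villus bottom antimicrobial genes (median 0.24, 0 and 0).

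Of the 149 fallen genes 95 were on no list. By the size of p, *Mtmr11*, a myotubularin-related protein, *Ptprr*, a receptor tyrosine phosphatase, *Pmp22*, a small membrane protein best known from myelin, and *Hspa12a*, a distant member of the Hsp70 family, led them. *Ptprr* had little spread, with 75.4, 79.4, 86.8 and 74.6 CPM in control and 36.7, 40.4, 33.8 and 41.6 CPM in DT, and fell 2.08-fold (log2 -1.05 ± 0.16, adjusted p = 0.0288). *Pmp22* measured 156, 122, 364 and 149 CPM in control and 61.8, 28.7, 33.8 and 37.5 CPM in DT (log2 -2.29 ± 0.37, adjusted p = 0.034). *Mtmr11* and *Hspa12a* fell by 1.37 and 2.23 on the log2 scale without overlap. Chosen after their values were seen, the water channels *Aqp1* (-1.08) and *Aqp3* (-0.93), the vitamin B12 receptor *Cubn* (-1.80), the non-classical MHC gene *H2-T23* (-1.06), the tryptophan-degrading enzyme *Ido1* (-2.13) and the BMP and TGF-beta pathway inhibitor *Smad7* (-1.04) were among them, of which *Aqp1*, *H2-T23*, *Ido1* and *Smad7* did not pass with the block (adjusted p of 0.231, 0.223, 0.267 and 0.288). Of the 65 risen genes 49 were on no list. Chosen in the same way, *Hmga1* (1.02) and *Nap1l1* (0.83), which bind chromatin and histones, *Mtap* (1.17), which salvages methionine and adenine, and the mitochondrial import subunits *Timm44* (0.52) and *Tomm6* (0.70) were among those, none of which passed with the block. With the length-dependent offset *Mtap* passed (adjusted p = 0.123), and *Hmga1*, *Nap1l1*, *Timm44* and *Tomm6* did not (0.233, 0.215, 0.215 and 0.281). *Gm10036*, *Gm10184* and *Gm20390*, also risen, may share reads with near-identical copies, and their values are uncertain.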

How the data were processed

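The authors deposited raw UMI counts per gene, made with bcl2fastq (2.15.0.4 in the processing notes of the submitters) and zUMIs on GRCm38 from poly(A) RNA prepared by mcSCRB-seq. No normalization had been applied. The 8 columns were matched to samples by title (0 left unmatched). A gene was tested where it exceeded 1e-05 of the UMIs in at least 2 samples, the filter of the study. Counts were scaled with TMM and compared with edgeR 4.0.16 (R 4.3.3, quasi-likelihood test, robust option, batch as a term), and p-values were adjusted by Benjamini-Hochberg over all 8986 genes. An SE is the log2 fold change over the square root of the F statistic. Between 748458 and 4210158 UMIs per sample mean that 3 UMIs equal 0.713 to 4.01 CPM.

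The labels list separate samples without naming the mouse of each, so p-values measure the spread between these samples. Batches were taken from the sample table of the study. DT and control samples of the same number deviated together (correlations 0.608, 0.413, 0.656 and 0.584), but not within the batches (-0.159 and -0.0606). The labels do not name pairs by number. The replicate number was also fitted as a block, which spends more terms on the same samples than batch does. No pair of libraries agreed within sampling noise. Transcript lengths and positions came from GENCODE M21 (GRCm38) for 8719 tested genes. The length-dependent offset is a loess curve (span 0.5) of each sample's deviation on log2 length.

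Named genes were those the study names, the 15 risen and 15 fallen with the smallest p, the 10 each way with the largest change among genes at an adjusted p below 0.2 and of one direction in both batches, and members of 36 gene lists where a list is described. The comparison, lists and named-gene rule were chosen with earlier results of these data known. The test was checked on simulated data. Alternatives were DESeq2 1.42.0, other scalings, filters and terms, each batch alone and each sample left out. Some genes that the rule would name are not reported here, and counts include them.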

Additional observations from a re-analysis of the deposited data

Results flagged for a closer look

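Among 92 groups of 4 samples (46 named genes in control and in DT), 6 had 1 sample far from the other 3. Chance gives about 1 in 20 where samples differ at random only, while each group here spans batches a and b. Values are in CPM. DT 3 was high for *Acot1* (188, others 4.17 to 27.9) and for *Gm7861* (16.6, others 1.66 to 4.17). DT 1 was high for *Sprr2a1* (2428, others 533 to 714) and low for *Egfr* (9.18, others 16.2 to 17.5). Control 2 was high for *Axin2* (67.6, others 30.1 to 36.5) and control 3 for *Pmp22* (364, others 122 to 156). The cause was not tested.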

How the results depend on the processing

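With the main settings 32 genes changed at 0.05 (2 risen, 30 fallen) and 65 rose and 149 fell at 0.2. Without a batch term 1 changed (0 and 1) and 0 rose and 3 fell at 0.2. With the replicate number as a block 3 changed (0 and 3), with 10 and 60 at 0.2. DESeq2 called 159 (45 and 114), with 440 and 406 at 0.2. Without a filter on low counts 15502 genes were tested and 635 called (302 and 333), with 777 and 741 at 0.2. The filter in at least 4 samples gave 19 (1 and 18), and 4 rose without the robust option. Batch a alone gave 0 (0 and 0, 0 and 0 at 0.2) and batch b alone 5 (0 and 5, 5 and 37 at 0.2), with fewer samples in each. With the length-dependent offset, added after seeing the data, 7 rose at 0.05, and with the block as well 16 rose and 87 fell at 0.2. The causes of these shifts were not tested. Leaving out 1 sample gave 3 to 41 genes changed at 0.05, 0 to 6 risen and 3 to 38 fallen, and 3 to 465 risen and 38 to 375 fallen at 0.2. The fewest at 0.05 came without control 1 and the most at 0.2 without DT 1. *Creb3l3*, not called, changed sign in batch b alone (0.008). The risen share of calls at 0.2, 30.4% without the robust option and 36.1% with RLE factors, was 52.0% in DESeq2. Upper-quartile scaling moved the median of all genes to 0.03. Control 2 was the shallowest library, where 3 UMIs equal 4.01 CPM, so its values are coarse for genes with few UMIs. The part of its depth in the number of calls was not tested.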
